A study of Homo sapiens with 8 samples.

Results

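Mitosis genes were followed across 2 human lung adenocarcinoma cell lines, 2 kinds of culture and treatment with gefitinib. The set held 46 named genes of chromosome condensation, spindle assembly, the spindle checkpoint, chromosome segregation and cytokinesis. A member was measured by the probe sets that the array annotation gave to its symbol alone, and the probe set with the highest mean over the 8 arrays was used for it. By this rule 45 of the 46 members had a value, among 18244 genes in all, and all 45 were among the 11926 genes tested, which were above the array median on at least 2 arrays. PTTG1, the securin that holds separase inactive, had no probe set of its own symbol alone and is not reported here. RNA was hybridised to 8 expression arrays, 1 for each combination of line, culture and treatment, so no condition had a replicate.

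The groups were HCC827, which carries an activating EGFR mutation, and A549, which carries none, each in 3D and in 2D and each with 1 µM gefitinib or without it. Gefitinib is an inhibitor of the EGFR tyrosine kinase. The 3D cultures were started from 100000 cells on a collagen scaffold and kept for 14 days, with gefitinib added after 11 days. The 2D cultures were started from 200000 cells in dishes and kept for 7 days; the labels give a 4-day start in a sentence that also names 3D, so when the 2D cultures received gefitinib, and for how long, is not settled here. RNA from the 3D cultures came from bead-lysed scaffolds through a micro column kit and RNA from the 2D cultures through a mini column kit, so culture, age of the culture and RNA preparation cannot be told apart. Each line is a single established line, and each array a single culture.

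Entry into mitosis is driven by CDK1 bound to B-type cyclins, and exit begins when the anaphase-promoting complex with CDC20 marks cyclin B and securin for destruction. The messages of most mitosis genes are low in G1 and rise in G2, under the transcription factors FOXM1 and MYBL2 and, in resting cells, under repression by the DREAM complex. Many of their promoters carry a CHR element (TTTGAA), which DREAM and its activating relatives bind, and CCAAT boxes, bound by NF-Y. In tumour cells that depend on EGFR signalling, withdrawal of the signal is known to stop cells in G1.

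Promoter windows from 250 bases before to 50 bases after the start of transcription, in RefSeq on GRCh38.p14, were found for 40 of the 46 members. They are shown for 4 central members to make the shared elements visible, all on the plus strand, with CHR and CCAAT matches in capitals: the mitotic cyclins CCNB1 at chr5:69166900-69167199 and CCNB2 at chr15:59104896-59105195, the anaphase activator CDC20 at chr1:43358731-43359030 and the kinase PLK1 at chr16:23678639-23678938.
CCNB1: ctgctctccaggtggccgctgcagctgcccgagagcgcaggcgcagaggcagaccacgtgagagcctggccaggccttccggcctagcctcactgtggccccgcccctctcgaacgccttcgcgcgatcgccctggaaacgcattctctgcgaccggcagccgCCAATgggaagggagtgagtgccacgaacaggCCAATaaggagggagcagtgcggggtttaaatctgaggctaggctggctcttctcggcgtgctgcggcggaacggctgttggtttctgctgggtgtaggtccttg
CCNB2: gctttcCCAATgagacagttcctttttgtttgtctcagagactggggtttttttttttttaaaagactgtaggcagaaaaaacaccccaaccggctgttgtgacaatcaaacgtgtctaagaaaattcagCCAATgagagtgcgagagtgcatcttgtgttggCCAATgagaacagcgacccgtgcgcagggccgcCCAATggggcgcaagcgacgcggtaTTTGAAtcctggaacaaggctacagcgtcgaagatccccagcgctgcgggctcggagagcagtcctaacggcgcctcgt
CDC20: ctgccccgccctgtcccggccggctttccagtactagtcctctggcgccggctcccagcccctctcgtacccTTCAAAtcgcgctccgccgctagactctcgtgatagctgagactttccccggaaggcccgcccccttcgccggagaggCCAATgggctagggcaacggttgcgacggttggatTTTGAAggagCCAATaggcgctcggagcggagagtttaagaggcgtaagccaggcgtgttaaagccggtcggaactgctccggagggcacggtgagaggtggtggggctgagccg
PLK1: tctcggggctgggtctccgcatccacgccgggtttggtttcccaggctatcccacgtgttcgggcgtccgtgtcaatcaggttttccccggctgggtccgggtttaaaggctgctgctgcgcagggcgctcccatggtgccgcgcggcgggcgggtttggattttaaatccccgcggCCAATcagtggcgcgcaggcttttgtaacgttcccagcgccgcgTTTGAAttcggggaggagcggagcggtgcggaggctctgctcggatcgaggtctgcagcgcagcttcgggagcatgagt
The CHR was searched as TTTGAA on either strand, which reads TTCAAA where it lies on the minus strand. The CCAAT box was searched on either strand as well, and reads ATTGG on the minus strand; matches of the 2 motifs were allowed to overlap. The CHR was present in 29 of 40 members (72.5%), against 15.4% of all 27305 promoters of this length and 9.69% of the 9807 promoters of genes tested on the arrays. The CCAAT box was present in 32 of 40 members (80%), against 35.7% of all promoters and 36.4% of those of tested genes. Both were present in 24 of 40 (60%), against 6.08% and 4.21%. CCNB2 had its CHR 29 bases before the start and 4 CCAAT boxes further upstream, CDC20 had 2 matches of each kind, and PLK1 had a CHR 29 bases before the start and 1 CCAAT box. CCNB1 had 2 CCAAT boxes and no TTTGAA in this window.

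EPCAM, KRT8, KRT18, KRT19, KRT7 and CDH1, all epithelial, were above the array median on all 8 arrays. The HCC827 markers NKX2-1, SFTA2 and CDKN2A were above it on the 4 HCC827 arrays alone. Among the A549 markers, ALDH1A1 was above it on the 4 A549 arrays alone, AKR1C1 and FGB on 5 arrays and AKR1C2 on 6. In HCC827 3D, AKR1C1 had 8.22 and AKR1C2 8.02 with gefitinib, and FGB 7.85 in control. On the A549 2D control array these 3 had 13.57, 14.34 and 12.68. Of 6 fibroblast, 5 leukocyte and 4 endothelial markers, COL1A2, COL3A1, DCN, PDGFRB, PTPRC, CD3E, MS4A1 and CDH5 were above the median on none. Of the other 7, COL1A1, PECAM1, VWF and KDR were above it on 1 to 3 arrays, CD14 on the 4 A549 arrays, LUM on 4 and CD68 on all 8. LUM, a matrix proteoglycan of fibroblasts, had 7.37, 6.28, 8.47 and 9.93 on the HCC827 arrays in 3D gefitinib, 3D control, 2D gefitinib and 2D control, and 5.83, 6.01, 6.90 and 7.66 on the A549 arrays in 3D gefitinib, 3D control, 2D gefitinib and 2D control, higher in 2D in both lines. CD68, a lysosomal protein abundant in macrophages, had 8.71, 10.16, 9.93 and 8.82 on the HCC827 arrays and 9.36, 9.36, 8.63 and 8.51 on the A549 arrays, in the same order; like the members it was lower with gefitinib in HCC827 3D and higher between the HCC827 2D arrays as labelled. The part of LUM and CD68 in the results was not tested. RNA quality differed with culture: the 3' minus 5' signal of the actin control was 2.64, 2.34, 1.74 and 1.67 on the 3D arrays (HCC827 gefitinib, HCC827 control, A549 gefitinib and A549 control) and between -0.14 and -0.05 on the 2D arrays. The same value for GAPDH was 1.57 on the HCC827 3D gefitinib array and 0.97 on the HCC827 3D control array. Its part in the culture differences, and in the gefitinib difference of HCC827 in 3D, was not tested. The HCC827 2D arrays ran against the HCC827 3D arrays in genes that EGFR signalling drives through ERK. DUSP6, the ERK phosphatase that ERK itself induces, had 8.16 on the 3D gefitinib array, 11.48 on the 3D control, 10.21 on the 2D array labelled gefitinib and 6.57 on the 2D array labelled control. Whether these labels are exchanged is not settled here. In all that follows, the names gefitinib and control for HCC827 in 2D, and the HCC827 culture and line differences that use these arrays, go by the labels as given, and member counts with the labels exchanged, an alternative chosen after seeing the data, are given beside them.

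Nearly the whole set was lower with gefitinib in HCC827 grown in 3D, while the HCC827 2D arrays as labelled ran the opposite way and A549 showed no member past the test. In HCC827 3D, 43 of 45 members were lower with gefitinib and none higher, where 27.1% of all genes tested were called and 20.4% were called lower; the median member differed by -1.28 (log2), a factor of 0.411, against -0.11 for all genes tested. Between the HCC827 2D arrays as labelled, 45 of 45 were higher with gefitinib, where 22.4% of genes were called and 9.96% called higher; the median was 1.98, against -0.05 for all genes. In A549, 0 of 45 members and 0 of 11926 genes (0%) were called by limma, with 1461 genes at an unadjusted p under 0.05, 3 of them members. The set differed between cultures as well, where culture cannot be told apart from its age and the RNA preparation. In A549, 42 of 45 were lower in 3D than in 2D, where 64.1% of genes were called and 22.4% called lower. The median was -1.02, against 0.13 for all genes. In HCC827 the arrays labelled gefitinib had all 45 lower in 3D, where 64.7% of genes were called and 30.8% called lower, with a median of -2.30. The arrays labelled control had 39 higher and 2 lower in 3D, where 58.3% of genes were called, 35.6% higher and 22.7% lower, with a median of 0.89. In bulk RNA, a smaller share of cycling cells and less of each message in a cycling cell cannot be told apart.

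Differences are given with ± the standard error of the fit across all genes, and a call is an adjusted p under 0.05 over the 11926 genes. With 1 array a condition, the spread came from A549 alone, where the culture effect can be compared between treatments, and HCC827 was taken to vary like A549. The comparisons share arrays: the HCC827 3D control array, for instance, enters the gefitinib, the culture and the line difference, so these are not separate observations. Another scaling, cyclic loess on the deposited values, moved the median of all genes in HCC827 3D with gefitinib to 0.02, against -0.11 as deposited, and the share of higher genes among those called to 54.6%, against 24.8%. For A549 cultures it moved the same figures to -0.01 and 50.7%, against 0.13 and 65%, and for the HCC827 control arrays to 0.00 and 50.6%, against 0.13 and 61.1%. The members called under it were 43 lower with gefitinib in HCC827 3D, 45 lower in 3D in A549, and 36 higher and 3 lower between the HCC827 control arrays.

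**Figure D1:**
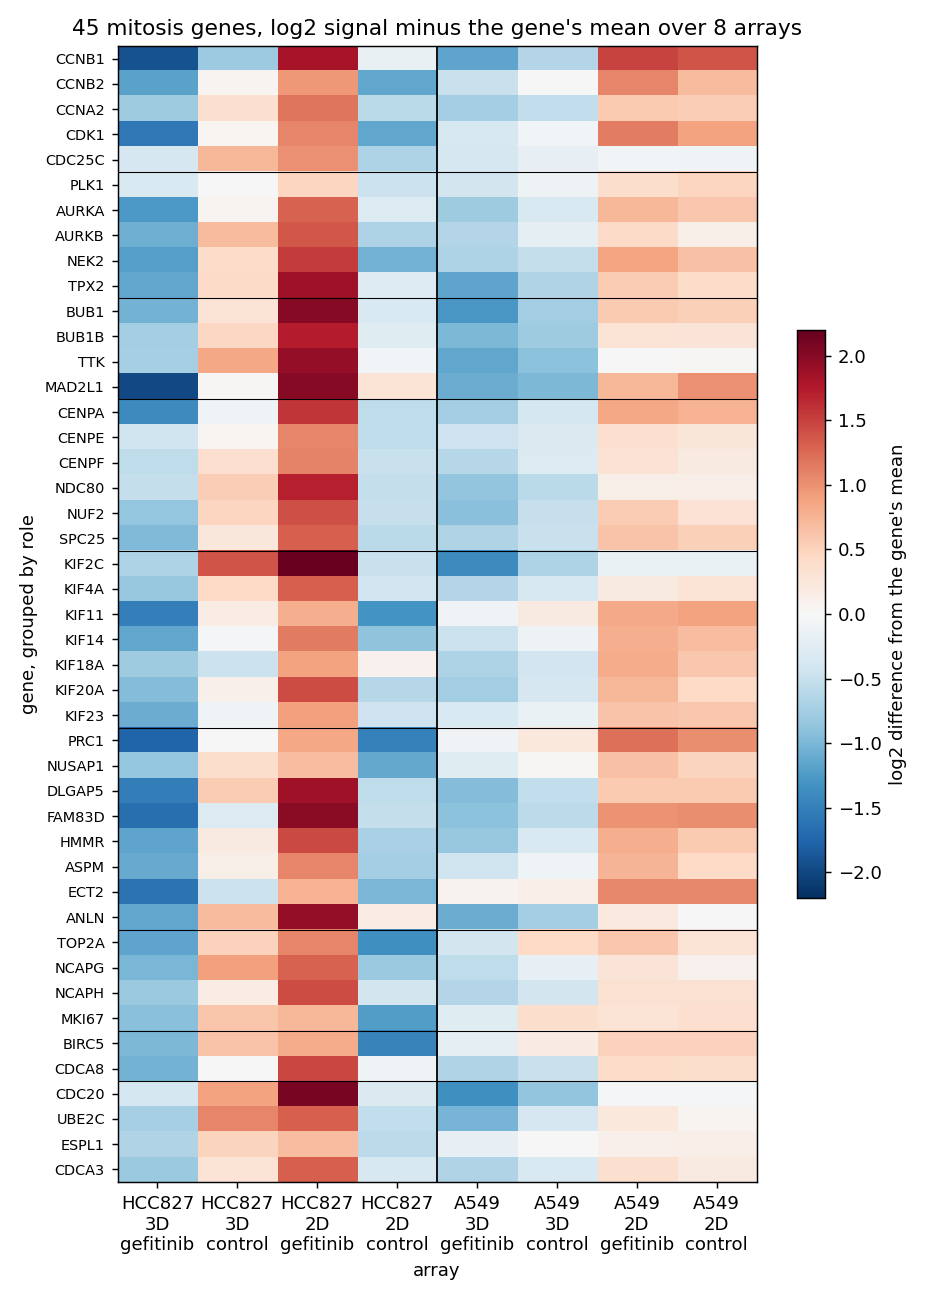
Log2 signal of the 45 mitosis genes (rows, grouped by role) on the 8 arrays (columns), as the difference from each gene's own mean over the arrays, blue below it and red above it. The HCC827 2D column labelled gefitinib holds the highest value of 39 genes and the HCC827 3D gefitinib column the lowest value of 28.

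By level, the median member stood at 7.52 on the HCC827 3D gefitinib array, 8.94 on the 3D control, 9.85 on the 2D array labelled gefitinib and 7.95 on the 2D array labelled control. In A549 it stood at 7.92 in 3D gefitinib, 8.18 in 3D control, 9.21 in 2D gefitinib and 9.15 in 2D control. The array medians over all probe sets ran from 7.27 to 7.34, so the median member lay 0.26 above its array median in HCC827 3D gefitinib and 2.53 above it on the HCC827 2D array labelled gefitinib. All 45 members were above the array median in HCC827 3D control, on the 2D array labelled gefitinib and in both A549 2D arrays, and 34 were in HCC827 3D gefitinib. The order of the 4 HCC827 arrays was shared by 34 of 45 members: 2D labelled gefitinib, 3D control, 2D labelled control, 3D gefitinib, from high to low, an order held by 4.92% of genes tested. CCNB1, KIF18A and MAD2L1 placed the 2D array labelled control above the 3D control, and CDC25C, TOP2A, MKI67, PLK1, CENPE, NUSAP1, BIRC5 and NDC80 placed it last. In A549, 32 members ran 2D gefitinib, 2D control, 3D control, 3D gefitinib from high to low (4.73% of genes tested) and 11 others exchanged only the 2D arrays.

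The cyclins and their kinase come first. CCNB1 stood at 7.40 (3D gefitinib), 8.51 (3D control), 11.12 (2D gefitinib) and 9.14 (2D control) in HCC827, and 8.16 (3D gefitinib), 8.67 (3D control), 10.80 (2D gefitinib) and 10.70 (2D control) in A549. Cyclin B1, the regulatory partner of CDK1 in mitosis, was lower with gefitinib in HCC827 3D by -1.11 ± 0.18 and had the largest fall of the set in 3D against 2D in A549, -2.34 ± 0.13 (adjusted p = 4.03e-07). It was also 1 of only 2 members lower in 3D between the HCC827 control arrays, -0.63 ± 0.18. CCNB2 had 7.85 (3D gefitinib), 9.09 (3D control), 9.98 (2D gefitinib) and 7.88 (2D control) in HCC827, and 8.54 (3D gefitinib), 9.03 (3D control), 10.10 (2D gefitinib) and 9.73 (2D control) in A549. Cyclin B2, its close relative, went the other way there, 1.21 ± 0.23. CDK1 read 8.38 (3D gefitinib), 9.99 (3D control), 11.03 (2D gefitinib) and 8.81 (2D control) in HCC827, and 9.60 (3D gefitinib), 9.89 (3D control), 11.07 (2D gefitinib) and 10.83 (2D control) in A549. The CDK1 kinase itself was lower with gefitinib in HCC827 3D by -1.60 ± 0.17 (adjusted p = 0.000112) and higher by 2.22 ± 0.17 between the 2D arrays as labelled. CCNA2 gave 7.85 (3D gefitinib), 8.98 (3D control), 9.81 (2D gefitinib) and 8.04 (2D control) in HCC827, and 7.88 (3D gefitinib), 8.10 (3D control), 9.21 (2D gefitinib) and 9.18 (2D control) in A549. For cyclin A2, which acts in S phase and early mitosis, the gefitinib difference in HCC827 3D was -1.13 ± 0.13. CDC25C stood at 7.39 (3D gefitinib), 8.49 (3D control), 8.76 (2D gefitinib) and 7.07 (2D control) in HCC827, and 7.39 (3D gefitinib), 7.58 (3D control), 7.70 (2D gefitinib) and 7.67 (2D control) in A549. CDC25C, the phosphatase that activates CDK1, was among the 3 members not called between cultures in A549, at -0.20 ± 0.09. Its other probe set gave -0.48 there. CDC25C was lower with gefitinib in HCC827 3D by -1.11 ± 0.13. All 5 of this group were lower in HCC827 3D gefitinib, and the HCC827 2D labelled gefitinib array was above the 2D labelled control for each.

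**Figure D2:**
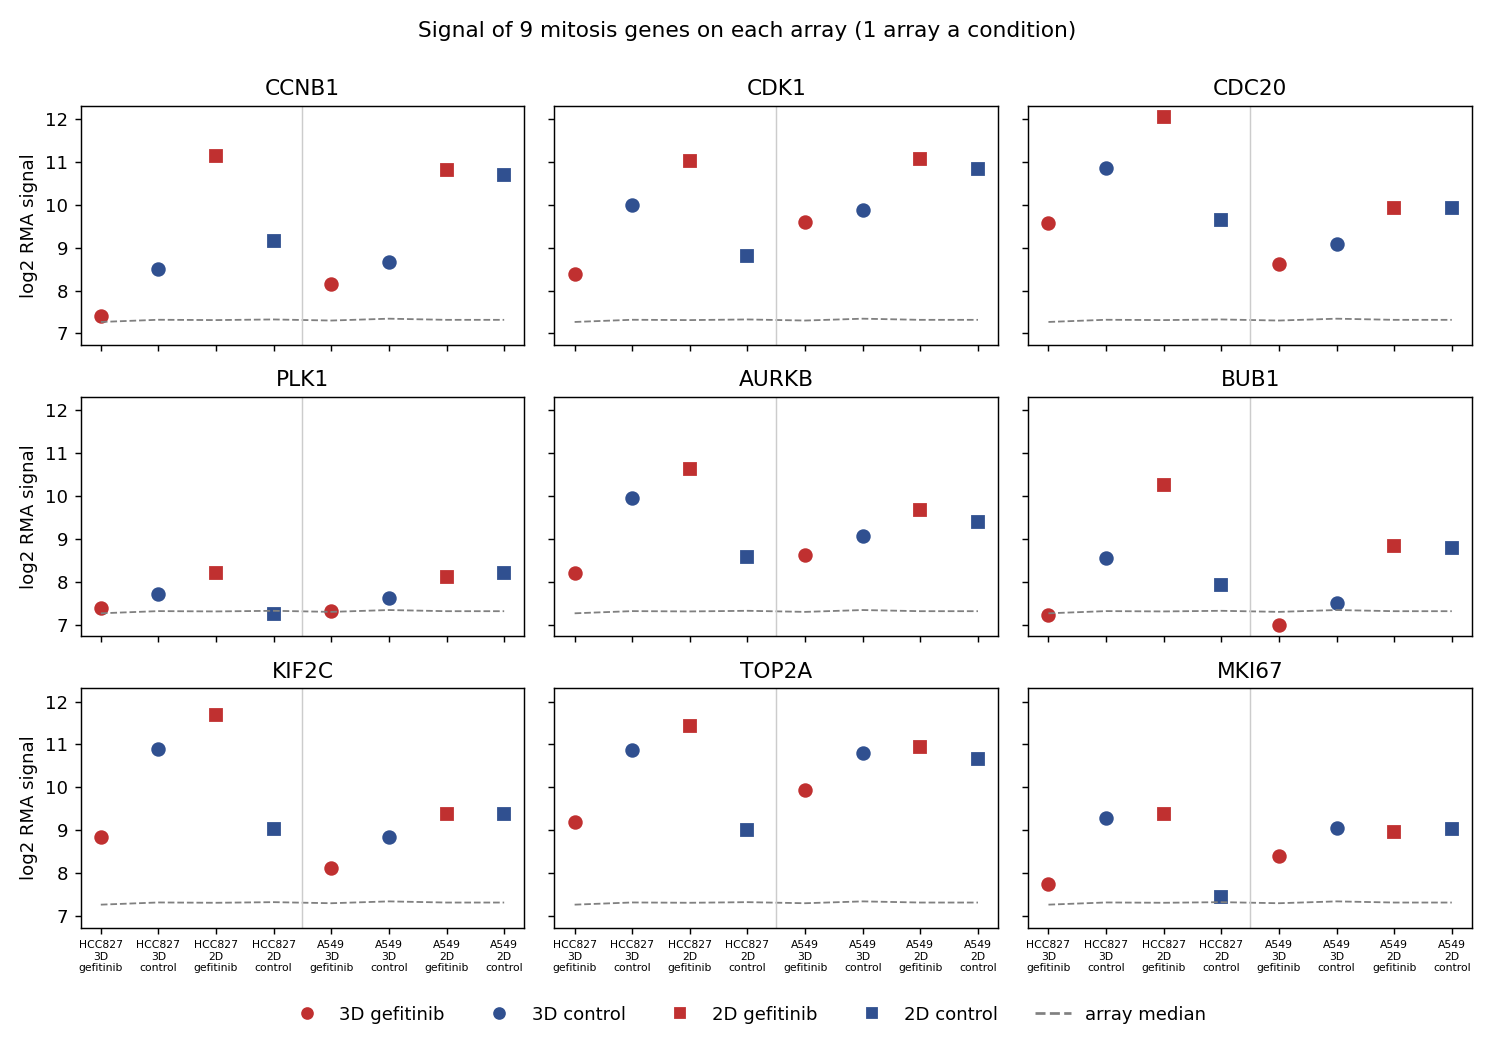
Log2 RMA signal of 9 mitosis genes on each of the 8 arrays, 1 point an array, HCC827 left of the grey line and A549 right of it, circles for 3D and squares for 2D, red for gefitinib and blue for control; the dashed line is the array median. BUB1 and PLK1 lie near the array median on the HCC827 3D gefitinib array (7.23 and 7.38), and CDC20 reaches 12.05 on the HCC827 2D array labelled gefitinib.

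The mitotic kinases were less uniform. PLK1 had 7.38 (3D gefitinib), 7.73 (3D control), 8.20 (2D gefitinib) and 7.26 (2D control) in HCC827, and 7.32 (3D gefitinib), 7.62 (3D control), 8.12 (2D gefitinib) and 8.20 (2D control) in A549. PLK1, the polo-like kinase of mitotic entry and spindle assembly, had the narrowest range of the set, 0.94, and stayed near the array medians. Its gefitinib difference in HCC827 3D was -0.34 ± 0.13 (adjusted p = 0.0802), short of the threshold. AURKA read 8.62 (3D gefitinib), 9.96 (3D control), 11.18 (2D gefitinib) and 9.60 (2D control) in HCC827, and 9.11 (3D gefitinib), 9.55 (3D control), 10.62 (2D gefitinib) and 10.48 (2D control) in A549. AURKA, the spindle pole kinase, was lower with gefitinib in HCC827 3D by -1.34 ± 0.18; between the HCC827 control arrays its culture difference was 0.36 ± 0.18 (adjusted p = 0.103). TPX2 gave 8.14 (3D gefitinib), 9.71 (3D control), 11.15 (2D gefitinib) and 8.99 (2D control) in HCC827, and 8.13 (3D gefitinib), 8.62 (3D control), 9.84 (2D gefitinib) and 9.69 (2D control) in A549. TPX2, which activates AURKA on spindle microtubules, differed with gefitinib by -1.56 ± 0.18 in HCC827 3D, and its A549 3D arrays were the lowest together with HCC827 3D gefitinib. AURKB stood at 8.20 (3D gefitinib), 9.96 (3D control), 10.64 (2D gefitinib) and 8.59 (2D control) in HCC827, and 8.62 (3D gefitinib), 9.07 (3D control), 9.69 (2D gefitinib) and 9.40 (2D control) in A549. AURKB, the enzyme of the chromosomal passenger complex, differed by -1.76 ± 0.20, the largest of the kinases. NEK2 had 7.10 (3D gefitinib), 8.71 (3D control), 9.85 (2D gefitinib) and 7.26 (2D control) in HCC827, and 7.62 (3D gefitinib), 7.77 (3D control), 9.18 (2D gefitinib) and 8.94 (2D control) in A549. NEK2, a kinase of centrosome separation, differed by 2.59 ± 0.15 between the HCC827 2D arrays as labelled, next in size to KIF2C.

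Spindle checkpoint genes, whose products hold back anaphase until every chromosome is attached, were all lower with gefitinib in HCC827 3D. BUB1 read 7.23 (3D gefitinib), 8.56 (3D control), 10.26 (2D gefitinib) and 7.93 (2D control) in HCC827, and 6.99 (3D gefitinib), 7.50 (3D control), 8.84 (2D gefitinib) and 8.79 (2D control) in A549. On the A549 and HCC827 3D gefitinib arrays the checkpoint kinase BUB1 was below the array median. BUB1B gave 7.74 (3D gefitinib), 8.94 (3D control), 10.21 (2D gefitinib) and 8.22 (2D control) in HCC827, and 7.51 (3D gefitinib), 7.71 (3D control), 8.78 (2D gefitinib) and 8.78 (2D control) in A549. BUB1B, the BubR1 component of the checkpoint complex, fell by 1.20 on the log2 scale in HCC827 3D with gefitinib. TTK stood at 7.32 (3D gefitinib), 8.90 (3D control), 9.98 (2D gefitinib) and 7.98 (2D control) in HCC827, and 6.91 (3D gefitinib), 7.15 (3D control), 8.05 (2D gefitinib) and 8.08 (2D control) in A549. TTK, the kinase that starts the checkpoint signal, was below the array median in both A549 3D arrays and well above it on the HCC827 3D control array. MAD2L1 had 7.18 (3D gefitinib), 9.20 (3D control), 11.18 (2D gefitinib) and 9.47 (2D control) in HCC827, and 8.08 (3D gefitinib), 8.18 (3D control), 9.90 (2D gefitinib) and 10.18 (2D control) in A549. MAD2L1, the MAD2 protein that binds CDC20, had the widest range of the set, 4.00. It was lower with gefitinib in HCC827 3D by -2.02 ± 0.12 (adjusted p = 7.46e-06) and lower in A549 3D than 2D by -1.91 ± 0.09, while the HCC827 control arrays gave -0.27 ± 0.12 between cultures, which was not called.

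Centromere and kinetochore genes followed. CENPA read 7.74 (3D gefitinib), 9.06 (3D control), 10.72 (2D gefitinib) and 8.59 (2D control) in HCC827, and 8.39 (3D gefitinib), 8.77 (3D control), 10.01 (2D gefitinib) and 9.92 (2D control) in A549. CENPA, the histone H3 variant that marks centromeres, differed by -1.32 ± 0.16 with gefitinib in HCC827 3D. CENPE gave 7.76 (3D gefitinib), 8.24 (3D control), 9.26 (2D gefitinib) and 7.64 (2D control) in HCC827, and 7.75 (3D gefitinib), 7.88 (3D control), 8.56 (2D gefitinib) and 8.47 (2D control) in A549. For CENPE, a kinetochore kinesin, the difference was smaller, -0.49 ± 0.13 (adjusted p = 0.0219), the smallest of the called members. CENPF stood at 7.86 (3D gefitinib), 8.80 (3D control), 9.52 (2D gefitinib) and 7.93 (2D control) in HCC827, and 7.79 (3D gefitinib), 8.13 (3D control), 8.75 (2D gefitinib) and 8.63 (2D control) in A549. The large kinetochore protein CENPF had its lowest value in A549 3D gefitinib, close to HCC827 3D gefitinib. NDC80 had 7.17 (3D gefitinib), 8.23 (3D control), 9.39 (2D gefitinib) and 7.16 (2D control) in HCC827, and 6.82 (3D gefitinib), 7.10 (3D control), 7.82 (2D gefitinib) and 7.84 (2D control) in A549. NDC80, which gives the microtubule-binding complex its name, was above the array median on 4 arrays: both A549 2D arrays, HCC827 3D control and the HCC827 2D array labelled gefitinib. NUF2 read 7.11 (3D gefitinib), 8.44 (3D control), 9.39 (2D gefitinib) and 7.46 (2D control) in HCC827, and 7.04 (3D gefitinib), 7.46 (3D control), 8.52 (2D gefitinib) and 8.29 (2D control) in A549. NUF2, its partner, had its lowest value in A549 3D gefitinib, as NDC80 did. SPC25, of the same complex, ranged from 6.45 in HCC827 3D gefitinib to 8.73 on the HCC827 2D array labelled gefitinib. All 6 were lower with gefitinib in HCC827 3D, with a group median of -1.14, and all 6 were lower in 3D in A549, with a group median of -1.01.

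Among the motors, KIF2C stood out by size. KIF2C gave 8.84 (3D gefitinib), 10.90 (3D control), 11.68 (2D gefitinib) and 9.02 (2D control) in HCC827, and 8.12 (3D gefitinib), 8.84 (3D control), 9.37 (2D gefitinib) and 9.37 (2D control) in A549. KIF2C, the microtubule depolymerase that corrects wrong attachments, was lower with gefitinib in HCC827 3D by -2.06 ± 0.20 (adjusted p = 6.48e-05) and higher by 2.66 ± 0.20 between the 2D arrays as labelled, the widest of the set. KIF11 stood at 7.52 (3D gefitinib), 9.18 (3D control), 9.82 (2D gefitinib) and 7.71 (2D control) in HCC827, and 8.94 (3D gefitinib), 9.21 (3D control), 9.85 (2D gefitinib) and 9.90 (2D control) in A549. KIF11, the Eg5 kinesin that separates the spindle poles, had its highest values in A549 2D. KIF18A had 7.38 (3D gefitinib), 7.69 (3D control), 9.05 (2D gefitinib) and 8.26 (2D control) in HCC827, and 7.48 (3D gefitinib), 7.74 (3D control), 8.97 (2D gefitinib) and 8.76 (2D control) in A549. KIF18A dampens chromosome movements at the metaphase plate. It had the smallest gefitinib difference of the motors in HCC827 3D, -0.30 ± 0.16 (adjusted p = 0.194), and was not called. KIF20A read 7.32 (3D gefitinib), 8.38 (3D control), 9.70 (2D gefitinib) and 7.63 (2D control) in HCC827, and 7.50 (3D gefitinib), 7.89 (3D control), 9.00 (2D gefitinib) and 8.71 (2D control) in A549. KIF23 gave 7.32 (3D gefitinib), 8.31 (3D control), 9.30 (2D gefitinib) and 7.95 (2D control) in HCC827, and 8.06 (3D gefitinib), 8.25 (3D control), 9.03 (2D gefitinib) and 9.00 (2D control) in A549. KIF20A and KIF23 are kinesins of the central spindle, and both had HCC827 3D gefitinib as their lowest array. KIF4A, a chromokinesin, ranged from 7.31 to 9.46 and KIF14, a kinesin of cytokinesis, from 6.51 to 8.78, both between HCC827 3D gefitinib and the HCC827 2D array labelled gefitinib. Of the 7 motors, 6 were lower with gefitinib in HCC827 3D and all 7 were lower in 3D in A549.

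Spindle and cytokinesis genes held the largest gefitinib difference in HCC827 3D. DLGAP5 stood at 7.18 (3D gefitinib), 9.27 (3D control), 10.58 (2D gefitinib) and 8.15 (2D control) in HCC827, and 7.76 (3D gefitinib), 8.17 (3D control), 9.29 (2D gefitinib) and 9.29 (2D control) in A549. DLGAP5, the HURP protein that stabilises spindle fibres, differed by -2.09 ± 0.15 (adjusted p = 1.42e-05). FAM83D had 6.67 (3D gefitinib), 8.04 (3D control), 10.32 (2D gefitinib) and 7.81 (2D control) in HCC827, and 7.44 (3D gefitinib), 7.76 (3D control), 9.32 (2D gefitinib) and 9.36 (2D control) in A549. FAM83D, a spindle protein that recruits a kinase to it, was below the array median on the HCC827 3D gefitinib array and differed between cultures in A549 by -1.74 ± 0.10. PRC1 read 7.94 (3D gefitinib), 9.70 (3D control), 10.56 (2D gefitinib) and 8.22 (2D control) in HCC827, and 9.62 (3D gefitinib), 9.93 (3D control), 10.91 (2D gefitinib) and 10.72 (2D control) in A549. PRC1, which bundles midzone microtubules, was the member furthest below the fitted A549 value on the HCC827 2D array labelled control, -2.63 ± 0.15. HMMR gave 8.02 (3D gefitinib), 9.38 (3D control), 10.63 (2D gefitinib) and 8.47 (2D control) in HCC827, and 8.35 (3D gefitinib), 8.85 (3D control), 9.97 (2D gefitinib) and 9.75 (2D control) in A549. HMMR, a hyaluronan receptor that also sits on spindles, was high on the HCC827 2D array labelled gefitinib and had its lowest values in 3D gefitinib in both lines. ECT2 stood at 7.81 (3D gefitinib), 8.96 (3D control), 10.20 (2D gefitinib) and 8.42 (2D control) in HCC827, and 9.50 (3D gefitinib), 9.58 (3D control), 10.49 (2D gefitinib) and 10.49 (2D control) in A549. ECT2 activates RhoA at the cell equator. It was the only member called lower in HCC827 than in A549 in 3D control, -0.60 ± 0.11 with the fitted A549 value. Its A549 3D arrays differed by the least with gefitinib, -0.08. ANLN had 8.41 (3D gefitinib), 10.26 (3D control), 11.49 (2D gefitinib) and 9.72 (2D control) in HCC827, and 8.46 (3D gefitinib), 8.81 (3D control), 9.77 (2D gefitinib) and 9.55 (2D control) in A549. Anillin, a scaffold of the contractile ring, was 1 of 2 members whose HCC827 gefitinib difference was larger in 3D, -1.85 ± 0.17, than between the 2D arrays, 1.77 ± 0.17; the other was MAD2L1. ASPM, a spindle pole protein, ranged from 7.61 to 9.79 and NUSAP1, a microtubule-bundling protein, from 7.54 to 9.34. All 8 of these genes were lower with gefitinib in HCC827 3D and all 8 lower in 3D in A549.

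Among the chromosome structure genes were the other members not called between cultures in A549. TOP2A read 9.20 (3D gefitinib), 10.86 (3D control), 11.42 (2D gefitinib) and 9.00 (2D control) in HCC827, and 9.94 (3D gefitinib), 10.79 (3D control), 10.94 (2D gefitinib) and 10.66 (2D control) in A549. TOP2A, the topoisomerase that untangles sister chromatids, was lower with gefitinib in HCC827 3D by -1.66 ± 0.28 (adjusted p = 0.00182), but its culture difference in A549 was -0.43 ± 0.20 (adjusted p = 0.0783). That value goes with the probe set used: the other 2 for TOP2A gave -1.34 and -1.59 there. MKI67 gave 7.74 (3D gefitinib), 9.28 (3D control), 9.39 (2D gefitinib) and 7.44 (2D control) in HCC827, and 8.40 (3D gefitinib), 9.05 (3D control), 8.97 (2D gefitinib) and 9.02 (2D control) in A549. MKI67, the Ki-67 proliferation marker that coats mitotic chromosomes, was not called between cultures in A549 either, -0.27 ± 0.13 (adjusted p = 0.0844). Its other probe sets gave -0.66, -0.64, -0.60, -0.51 and 0.12 there. With the probe sets used, TOP2A and MKI67 had their lowest value on the HCC827 2D array labelled control. NCAPG stood at 7.47 (3D gefitinib), 9.39 (3D control), 9.77 (2D gefitinib) and 7.66 (2D control) in HCC827, and 7.92 (3D gefitinib), 8.30 (3D control), 8.76 (2D gefitinib) and 8.57 (2D control) in A549. NCAPG of condensin I differed with gefitinib in HCC827 3D by -1.92 ± 0.17, and NCAPH, of the same complex, ranged from 7.50 to 9.76. BIRC5 had 8.70 (3D gefitinib), 10.31 (3D control), 10.49 (2D gefitinib) and 8.22 (2D control) in HCC827, and 9.49 (3D gefitinib), 9.87 (3D control), 10.19 (2D gefitinib) and 10.19 (2D control) in A549. BIRC5 (survivin), of the chromosomal passenger complex, had, with the probe sets used, the largest rise in 3D against 2D between the HCC827 control arrays, 2.09 ± 0.15 (adjusted p = 2.57e-06). Its other 7 probe sets above the array median on at least 2 arrays gave 0.34 to 0.76. CDCA8 read 6.90 (3D gefitinib), 7.94 (3D control), 9.40 (2D gefitinib) and 7.84 (2D control) in HCC827, and 7.27 (3D gefitinib), 7.44 (3D control), 8.33 (2D gefitinib) and 8.33 (2D control) in A549. CDCA8 (borealin), its partner there, gave 0.10 ± 0.13 in the same comparison, not called.

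The genes of anaphase closed the set. CDC20 gave 9.57 (3D gefitinib), 10.85 (3D control), 12.05 (2D gefitinib) and 9.65 (2D control) in HCC827, and 8.61 (3D gefitinib), 9.08 (3D control), 9.93 (2D gefitinib) and 9.93 (2D control) in A549. CDC20, which activates the anaphase-promoting complex, differed with gefitinib by -1.28 ± 0.16 in HCC827 3D and by 2.41 ± 0.16 between the 2D arrays as labelled. UBE2C stood at 9.57 (3D gefitinib), 11.39 (3D control), 11.62 (2D gefitinib) and 9.77 (2D control) in HCC827, and 9.28 (3D gefitinib), 9.93 (3D control), 10.54 (2D gefitinib) and 10.36 (2D control) in A549. UBE2C, the ubiquitin-conjugating enzyme of that complex, was lower with gefitinib in HCC827 3D by -1.82 ± 0.22. ESPL1 had 7.36 (3D gefitinib), 8.50 (3D control), 8.69 (2D gefitinib) and 7.45 (2D control) in HCC827, and 7.83 (3D gefitinib), 8.02 (3D control), 8.13 (2D gefitinib) and 8.16 (2D control) in A549. Separase, which cuts cohesin, was lower in 3D than in 2D in A549 by -0.22 ± 0.09, at an adjusted p of 0.0497, next to the threshold. CDCA3, which takes part in mitotic entry, ranged from 7.10 in HCC827 3D gefitinib to 9.24 on the HCC827 2D array labelled gefitinib. All 4 measured genes of this group were lower with gefitinib in HCC827 3D and lower in 3D in A549.

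The question of whether gefitinib acts alike in both cultures and lines was put to the fit directly. In HCC827 the gefitinib difference in 3D minus that in 2D as labelled was called for 45 of 45 members, all below 0, where 32.6% of genes were called and 19.3% called lower; it ran from -4.72 ± 0.28 for KIF2C to -1.10 ± 0.23 for KIF18A, with a median of -3.30. For 43 of 45 members the 2D difference was larger in size than the 3D one. With the labels of the HCC827 2D arrays exchanged, the 2D difference had a median of -1.98 with 45 of 45 called lower. Of the 11926 genes, 1188 were called lower and 1484 higher there. The 3D minus 2D difference turned to a median of 0.60, with 13 members called higher and none lower. There 11.6% of genes were called, 246 of 11926 higher and 1135 lower, with a median of -0.16 for all genes. Setting HCC827 3D against the mean gefitinib difference of A549 over both cultures, 42 of 45 differences were lower and none higher. There 20.5% of genes were called and 16.9% called lower. That mean joins unlike A549 pairs, with medians of -0.33 in 3D and 0.10 in 2D. The median of the 45 differences was -1.18. The largest were DLGAP5 at -1.88 ± 0.18, MAD2L1 at -1.83 ± 0.15 and NCAPG at -1.82 ± 0.21. CENPE (-0.46 ± 0.16), KIF18A (-0.28 ± 0.20) and PLK1 (-0.15 ± 0.16) did not pass. Neither HCC827 2D array enters the HCC827 3D values, since each has a coefficient of its own. A fit without those arrays could therefore differ only through the set of genes tested, 11804 against 11926. Its counts, 43 in HCC827 3D and 42 against A549, are no separate support.

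**Figure D3:**
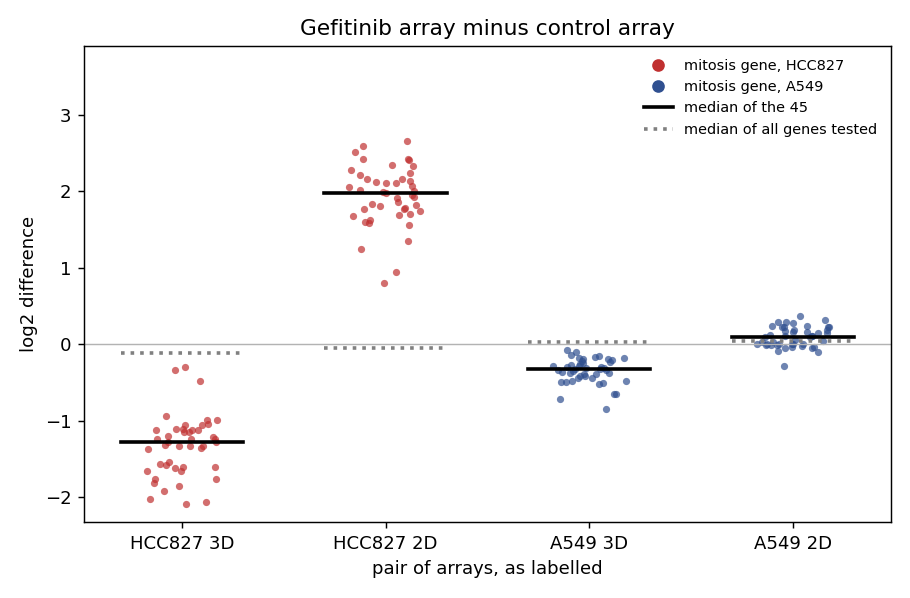
Gefitinib array minus control array (log2) for the 45 mitosis genes, 1 point a gene, in the 4 pairs of arrays as labelled; black bars are medians of the 45 and dotted lines medians of all genes tested. The points lie below 0 in HCC827 3D (median -1.28) and above 0 in HCC827 2D (1.98), and between -0.85 and 0.37 in A549.

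In A549 the fit gave a median gefitinib difference of -0.11 over both cultures, with 44 of 45 below 0, and the smallest adjusted p among all genes was 0.0552. The pairs of arrays were unlike. Between the A549 3D arrays all 45 members were lower with gefitinib, from -0.85 for TOP2A to -0.08 for ECT2 with a median of -0.33, where 41.2% of genes tested were below 0. MKI67 gave -0.65, KIF2C -0.71 and UBE2C -0.65. Between the A549 2D arrays 33 were above 0 and 12 below, with a median of 0.10. Of all genes tested, 60.8% were above 0 there, with a median of 0.04. The difference between these pairs was below 0 for 44 of 45 members, with a median of -0.47, where 52.7% of genes tested were below 0. It is the very spread against which the fit tests, so it has no test here.

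The culture question, 3D against 2D, had different answers in the arrays of HCC827. In A549 the largest falls were CCNB1, MAD2L1 at -1.91 ± 0.09 and FAM83D at -1.74 ± 0.10, and the 3 not called were CDC25C, TOP2A and MKI67. The A549 control arrays alone gave a median of -0.79 with 43 of 45 below 0, and the A549 gefitinib arrays -1.25 with all 45 below 0. Of all genes tested, 37.8% were below 0 between the controls and 38.1% between the gefitinib arrays. With the probe sets used, TOP2A (0.13) and MKI67 (0.03) were the 2 above 0 between the controls. The other probe sets of TOP2A gave -1.05 and -1.31 there, and those of MKI67 from -0.67 to 0.28. With a fit of 6 coefficients, whose spread also holds the unlike HCC827 arrays, 0 of 45 members were called in A549, where 22.3% of genes were called, and 0 in HCC827 over both treatments, where 33.4% were. Between the HCC827 arrays labelled gefitinib the falls in 3D ran from -4.00 ± 0.12 for MAD2L1, -3.73 ± 0.18 for CCNB1 and -3.65 ± 0.14 for FAM83D to -0.81 ± 0.13 for PLK1. Between the HCC827 arrays labelled control, BIRC5, KIF2C (1.88 ± 0.20) and TOP2A (1.86 ± 0.28) were the most raised in 3D, CCNB1 and KIF18A (-0.57 ± 0.16) were lower, and MAD2L1, CDCA8, FAM83D (0.23 ± 0.14) and AURKA were not called. With the HCC827 2D labels exchanged, the control arrays had 37 members lower in 3D and none higher, with a median of -1.04. There 60.4% of genes were called, 2650 lower and 4558 higher. The gefitinib arrays then had 20 members lower and 1 higher, with a median of -0.35. For these 59.5% of genes were called, 3626 lower and 3465 higher. Averaged over both treatments as labelled, HCC827 had 36 of 45 lower in 3D and none higher, where 69.5% of genes were called and 30.1% called lower, with a median of -0.65, an average of 2 opposite directions.

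**Figure D4:**
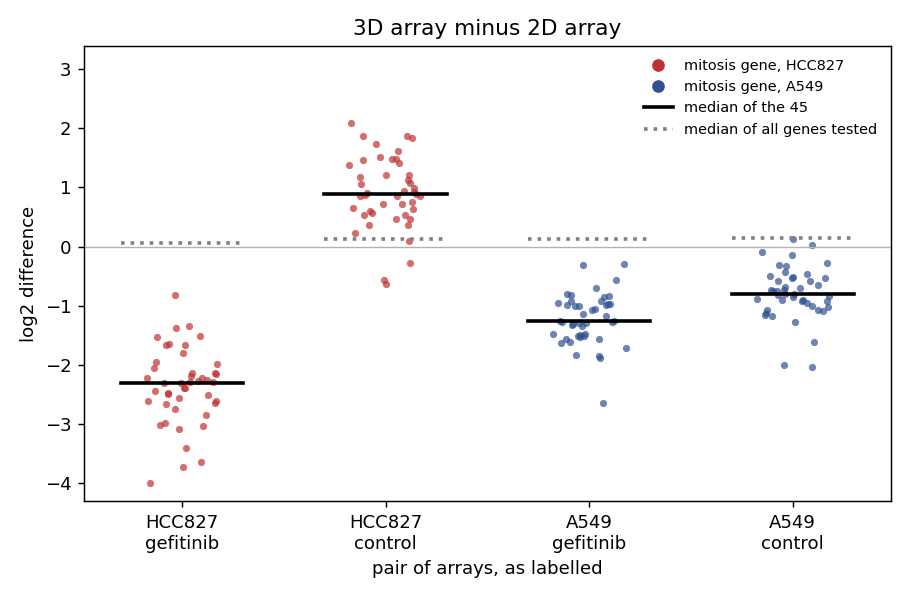
3D array minus 2D array (log2) for the 45 mitosis genes, 1 point a gene, in the 4 pairs of arrays as labelled; black bars are medians of the 45 and dotted lines medians of all genes tested. The HCC827 control pair is the only one with a median above 0 (0.89); the other medians are -2.30, -1.25 and -0.79.

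The values also depended on the probe set chosen for a gene. The 45 members had 112 probe sets, 98 of them above the array median on at least 2 arrays, and 26 members had several of those. Between cultures in A549, 97 of the 98 were below 0; the probe sets used had a median of -0.92 in these 26 members and the mean of the others -1.31. Between the HCC827 control arrays 77 were above 0 and 21 below, the probe sets used had a median of 1.03 and the others 0.15, and the one used was the higher in 25 of 26 members. CDC20 gave 1.21 with the probe set used and -1.13 with the other. TOP2A gave 1.86, 0.72 and 0.41 from the brightest probe set to the dimmest, and -0.43, -1.34 and -1.59 in A549. For CDK1 the values were 1.18 and 0.13 between the HCC827 control arrays. Between the HCC827 gefitinib arrays 98 of 98 were below 0, with a median of -2.29 for the probe sets used and -2.49 for the others. The gefitinib difference was below 0 in 96 of 98 probe sets in HCC827 3D, with a median of -1.34 for those used and -0.72 for the others, and the one used was the lower in 23 of 26 members. MAD2L1, for example, gave -2.02 there with the probe set used and -1.14 as the mean of its others. For PRC1 the same values were -1.76 and -0.02. The 2 probe sets above 0 belonged to PRC1 (0.17) and PLK1 (0.12), neither of them the probe set used. The gefitinib difference was above 0 in 98 of 98 between the 2D arrays as labelled. Where each probe set lies along its transcript was not used here, and its relation to the 3' minus 5' values above was not tested.

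**Figure D5:**
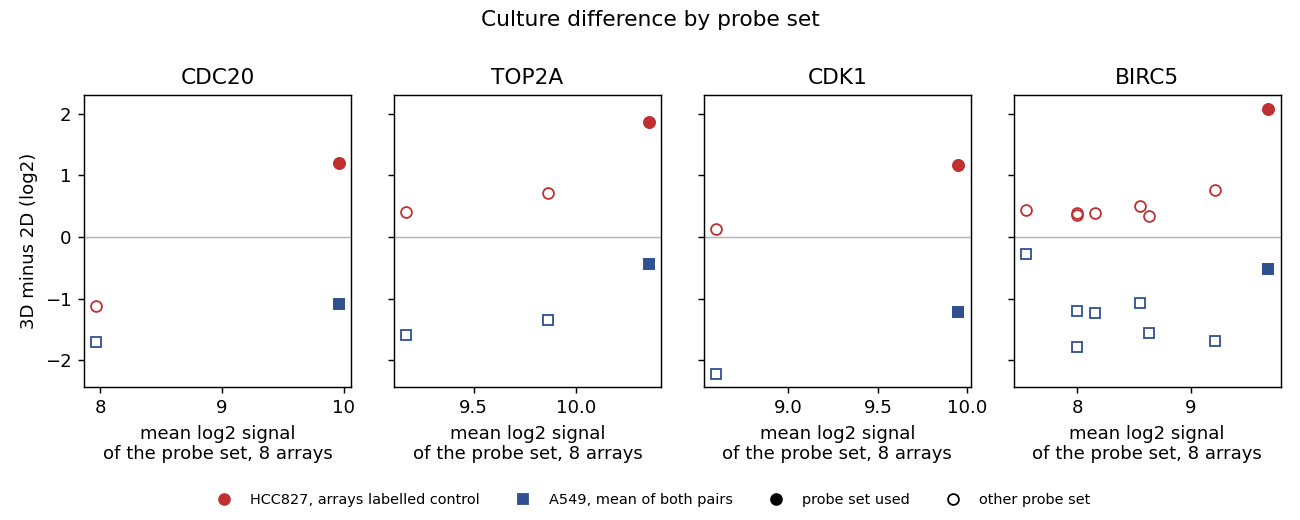
Difference of 3D minus 2D (log2) for each probe set of CDC20, TOP2A, CDK1 and BIRC5 above the array median on at least 2 arrays, against the probe set's mean log2 signal; red circles are the HCC827 arrays labelled control, blue squares A549 over both treatments, filled for the probe set used. The filled circles lie highest in all 4 genes, at 1.21, 1.86, 1.18 and 2.09.

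Between lines the answer also turned on the arrays compared. A549 entered these differences by its fitted values, so they depart from those between single arrays. Array minus array, the medians were 0.53 in 3D control and -0.37 in 3D gefitinib. In 2D they were 0.70 for the arrays labelled gefitinib and -0.92 for those labelled control. On the 3D control arrays 32 of 45 members were higher in HCC827 than in A549, 1 was lower and 12 were not called, where 60.6% of genes were called, 30.8% higher and 29.8% lower; the median was 0.66. KIF2C (2.24 ± 0.18), CDC20 (1.89 ± 0.15) and TTK (1.80 ± 0.12) led. In the fit CCNB1 (-0.01 ± 0.17), KIF11 (0.03 ± 0.12) and KIF18A (0.07 ± 0.15) were nearest to 0. Between the 3D control arrays themselves, CCNB1, KIF11 and KIF18A gave -0.16, -0.03 and -0.05. On the 3D gefitinib arrays 25 were lower in HCC827, 3 were higher (CDC20 at 0.84 ± 0.15, KIF2C at 0.54 ± 0.18 and TTK at 0.35 ± 0.12) and 17 were not called, where 64.2% of genes were called, 23.8% higher and 40.3% lower, with a median of -0.51. The lowest were PRC1, ECT2 and KIF11, at -1.80 ± 0.15, -1.71 ± 0.11 and -1.47 ± 0.12. On the 2D arrays labelled gefitinib 37 were higher in HCC827 and none lower, where 56.4% of genes were called and 27.5% called higher, with a median of 0.84. On those labelled control 43 were lower and none higher, where 58% of genes were called and 26.9% called lower, with a median of -1.03 and with TTK (-0.15 ± 0.12) and ANLN (0.03 ± 0.16) not called. KIF2C, CDC20 and TTK were thus the members highest in HCC827 relative to A549 on the 3D control, 3D gefitinib and 2D labelled gefitinib arrays, and PRC1, KIF11 and ECT2 were among the lowest on all of these. Over all 4 arrays of each line 17 were higher, 16 lower and 12 not called, where 75% of genes were called, 35.8% higher and 39.2% lower, with a median of 0.00. The fit of 6 coefficients called none of the 45 over all arrays, where 48.1% of genes were called, and 2 other choices of probe set turned the balance to 16 higher and 17 lower. With the HCC827 2D labels exchanged, the 2D control arrays had 31 members higher and 1 lower in HCC827. There 56.4% of genes were called, 3495 higher and 3230 lower. The 2D gefitinib arrays then had 41 members lower and none higher, where 57.5% of genes were called, 3388 lower and 3466 higher.

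Other cell cycle genes were read beside the members. Of 69 tested mitosis genes outside the set, 57 were lower and none higher with gefitinib in HCC827 3D, with a median of -0.83, led by CDCA5 at -2.10 ± 0.14 (sororin, which protects cohesion) and ZWINT at -2.05 ± 0.15 (a kinetochore protein). Of 26 G1 and S phase genes all 26 were lower, with a median of -1.29. RRM2, a subunit of ribonucleotide reductase, differed by -3.21 ± 0.12, and CDC6, which loads the replicative helicase, by -2.32 ± 0.14. Of 14 tested regulators of mitotic transcription 7 were lower: FOXM1 (-1.43 ± 0.13), E2F1 (-1.29 ± 0.12), MYBL2 (-1.20 ± 0.14) and E2F8 (-1.14 ± 0.14) had the largest differences. FOXM1 had 7.65 in HCC827 3D gefitinib, 9.08 in 3D control, 8.89 on the 2D array labelled gefitinib and 7.04 on that labelled control. Its 2 higher and 2 lower arrays were those of most members, but the order within each pair was not. FOXM1 had 3D control above the 2D array labelled gefitinib, and the 2D array labelled control below 3D gefitinib. In A549 it lay between 7.76 and 7.90 on all 4 arrays, and its culture difference of 0.01 ± 0.09 was not called. Those of MYBL2 (-0.11 ± 0.10) and E2F1 (-0.07 ± 0.09) were not called either. Of the 14 regulators, 5 were called lower and 2 higher in 3D than in 2D in A549, with a median of -0.08. There 64.1% of all genes were called and 22.4% called lower, with a median of 0.13.

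Other parts of the mitotic machinery were counted in the same way. Of 16 APC/C genes tested, 2 were lower with gefitinib in HCC827 3D, UBE2S (-0.93 ± 0.13) and ANAPC11 (-0.46 ± 0.13), and 1 was higher, ANAPC13 (0.69 ± 0.15). Of 16 cohesin and PP2A genes 6 were lower and 2 higher, with MASTL, the Greatwall kinase, at -1.03 ± 0.12, and with STAG1 (0.43 ± 0.12) and PDS5B (0.39 ± 0.12) higher. These counts can be set beside the 20.4% of all genes called lower and the 6.73% called higher. Among 16 tested inhibitors and quiescence genes 4 were lower and 3 higher, and the 4 lower are a share near that of all genes. Of the 16, 10 were below 0, with a median of -0.16 against -0.11 for all genes. The 3 higher were CDKN2B at 2.04 ± 0.13 and CDKN1C at 1.84 ± 0.12, both inhibitors of cyclin-dependent kinases, and MXD4 at 0.51 ± 0.13. CDKN2B stood at 9.63 in HCC827 3D gefitinib and 7.59 in 3D control, and at 8.81 on the 2D array labelled gefitinib and 10.89 on that labelled control, high where most members were low. Between the 2D arrays as labelled, CDKN1C differed by -2.14 ± 0.12 and CDKN2B by -2.08 ± 0.13. Of 14 ERK-driven genes 13 were lower in HCC827 3D with gefitinib, and between the 2D arrays as labelled 11 were higher and 2 lower, IER3 (-0.69 ± 0.14) and MYC (-0.67 ± 0.12). Between those 2D arrays 63 of the 69 other mitosis genes and 25 of the 26 G1 and S phase genes were higher with the gefitinib label and none lower, where 9.96% of all genes were called higher and 12.4% lower.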

How the data were processed

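The deposited table held log2 values for 49495 probe sets, which per the submitters' processing notes the authors summarised by RMA, the robust multi-array average, with R 3.2.1. The authors' genome build was not given in the sources used here. Among the probe sets, 102 were controls, 45278 carried 1 gene symbol in the platform annotation and were used, 1333 carried several and 2782 others were not listed; 45208 of those used matched RefSeq (GRCh38.p14), taken for names only, and 70 did not. Each of 18244 genes kept its probe set of highest mean, and genes above the array median on at least 2 arrays were tested (11926; 6318 set aside).

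A linear model with 7 coefficients (A549 mean, culture and gefitinib, and a value for each HCC827 array) was fitted by limma (version 3.58.1, R version 4.3.3), and its variances were moderated by empirical Bayes with a trend on signal. It left 1 residual degree of freedom, from A549, with 9.06 added by the prior. For 14 comparisons, two-sided p-values were adjusted by Benjamini-Hochberg over the genes tested, with a threshold of 0.05. Line differences used fitted A549 values. The number of arrays limits the precision.

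Members and gene lists were chosen with earlier results of these data known, so their counts are descriptions beside those of all genes. All 46 members could be named. Single values were given for the members listed for it. In part of the comparisons they were also given for the largest or smallest differences and for members that went against the majority. From other lists they were given for up to 4 of the largest and for some against the majority. Alternatives were 2 other choices of probe set, 2 other filters, cyclic loess, 2 other variance priors, a minimum log2 size of 1, a fit with 6 coefficients and, chosen after seeing the data, a fit without the HCC827 2D arrays and one with their labels exchanged.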

Additional observations from a re-analysis of the deposited data

Results flagged for a closer look

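The response of the mitosis genes to gefitinib differed between the cultures of HCC827 as labelled. The difference in 3D minus that in 2D was called for 45 of 45 members, where 32.6% of all genes were called and 19.3% called lower, with a median of -3.30 on the log2 scale. It rests on the labels of the HCC827 2D arrays: with these exchanged, 13 of 45 were called, all higher, with a median of 0.60. Of all 11926 genes, 246 were then called higher and 1135 lower, with a median of -0.16. With 1 array a condition, the HCC827 2D arrays had no replicate to set beside them. The response also differed between lines: in HCC827 3D minus the mean A549 difference over both cultures, 42 of 45 members were called lower. There 20.5% of all genes were called and 16.9% called lower. The median of the members was -1.18, and all 45 differences were below 0.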

How the results depend on the processing

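The labels of the HCC827 2D arrays were also exchanged, an alternative chosen after seeing the data and run for counts alone. The members called were then 45 lower with gefitinib in HCC827 2D and 13 higher for 3D minus 2D. Between cultures 37 were lower in 3D for the control arrays and 21 (20 of them lower) were called for the gefitinib arrays. Against A549, 32 were called in 2D control (31 of them higher) and 41 were lower in 2D gefitinib. The counts of all genes with these labels stand beside the members in the results above. Under the other alternatives run, every gefitinib comparison of the members in HCC827 kept its direction and a like count, from 35 to 42 members against A549, from 39 to 43 in 3D, from 43 to 45 between the 2D arrays as labelled and from 44 to 45 in 3D minus 2D, of 45 tested (44 with the mean of all probe sets); in A549 none was called under any. A minimum log2 size of 1 left 23 members for 3D against 2D in A549, 18 between the HCC827 control arrays and 11 in HCC827 over both treatments. The shares of all genes left there were 9.12%, 14.1% and 14%. For HCC827 against A549 the same size left 14 in 3D control, 24 in 2D control, 5 in 3D gefitinib, 20 in 2D gefitinib and 4 over all arrays. The shares of all genes, in the same order, were 18.5%, 18.2%, 21.6%, 16.7% and 16.2%. The 6-coefficient fit, whose spread also holds the unlike HCC827 arrays, called 0 members for 3D against 2D in A549 (2665 of all genes, against 7644), 0 in HCC827 (3986 of all genes, against 8290) and 0 between lines over all arrays (5736, against 8945). Between lines over all arrays the balance turned to 16 higher and 17 lower, 33 in all, both with the mean of all probe sets and with the probe set of largest variance. Between the HCC827 control arrays the members called were 29 higher and 2 lower with the mean of probe sets, and 28 higher and 7 lower with the probe set of largest variance. There ECT2 turned to -0.0429 with the mean, and with the probe set of largest variance CDC20 turned to -1.13, PLK1 to -0.38, CENPA to -0.0207, KIF23 to -0.15, CDCA8 to -0.45, ECT2 to -0.62 and ANLN to -0.0401. BIRC5 in 3D against 2D in HCC827 turned to -0.44 and -1.21 under these choices. With the probe set of largest variance the line differences of CDC20 in 2D control (0.17), CDCA8 in 3D gefitinib (0.0687) and ECT2 in 2D gefitinib (0.38) also turned; the cause was not tested.

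Of all genes, gefitinib in A549 called 0 as reported, 3 with cyclic loess, 2 with robust empirical Bayes and 10 with no filter. With cyclic loess the share of higher genes among those called was 49.3%, against 17.3%, for HCC827 3D minus A549, 54.2%, against 40.8%, for HCC827 3D minus 2D, and 50.2%, against 37.1%, between lines in 3D gefitinib. No array could be left out of A549, since no residual degree of freedom would remain. No paired analysis was possible because each condition has 1 array and no replicate number pairs the samples. Signals near the array median, such as those of PLK1, limit how small a difference can be read.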
